A study of Macaca mulatta with 7 samples.

Results

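The myelin sheath genes MBP, MOG, MOBP, CNP, OPALIN, MYRF, ASPA, ERMN and UGT8 were followed one at a time through the oligodendrocyte-like nuclei of rhesus monkey spinal cord. These 9 genes were taken by their symbols from the deposited gene tables, out of 28966 symbols or identifiers, and all 9 were found. Nuclei from 7 libraries were profiled by droplet-based single-nucleus RNA sequencing. Intact cervical, thoracic and lumbar cord was uninjured and labelled as aged 5 years, and per the study's methods these 3 segments came from 1 monkey, while each injured time was 1 other monkey. The other 4 libraries held lumbar cord lying below a complete thoracic transection, in which a block of cord was removed, and were collected 7, 14 and 30 days (dpi) or 6 months (mpi) after the operation. The monkeys were 7 years old at 7 and 14 dpi and 6 years old at 30 dpi and 6 mpi, and per the methods they were female. Each group was thus 1 library, so that time after injury, animal, age and library cannot be told apart. Nuclei of 1 library are not replicates, and every interval given is a 95% interval that covers counting error only.

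Oligodendrocytes wrap axons of the central nervous system in a multilayered membrane that is rich in lipid and in a small set of proteins. MYRF is the transcription factor that switches on myelin genes as precursor cells (OPCs) mature and keeps them on in the adult. MBP holds the inner faces of the membrane together, MOBP also lies in compact myelin, MOG sits on the outermost lamella, and CNP lies in the non-compact cytoplasmic channels. OPALIN is a membrane protein of the oligodendrocyte, and ERMN is an actin-associated protein of late differentiation. UGT8 makes galactosylceramide, the main glycolipid of myelin, and ASPA cleaves N-acetylaspartate, which releases acetate that can be used to make lipid.

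The matrices held 777183139 unique molecular identifiers (UMIs, counted RNA molecules) over 69332 barcodes, and 45079131 to 150987900 UMIs per library. Of these barcodes, 63730 were kept, and between 1.27% and 1.58% of a library's barcode sequences also occurred in another library. The class called oligodendrocyte-like held 22145 nuclei, 1904 to 4342 per library, with median UMI counts from 3510.5 at 6 mpi to 8632 in intact thoracic cord. It was named from 7 markers that are not among the 9 genes, and those markers summed to 7250 to 8069 CPM (UMIs scaled to a class total of 1000000) across the libraries. The 9 genes were left out both when nuclei were clustered and when clusters were named. Together they made up between 1.04% and 1.15% of the UMIs of oligodendrocyte-like nuclei in all 7 libraries.

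In the RefSeq annotation of Mmul_10, MBP spans chr18:2932536-3086378 on the plus strand, MOG chr4:140555625-140570911 on the minus strand and MOBP chr2:95483063-95541951 on the plus strand. CNP lies at chr16:53090947-53102448 on the plus strand, OPALIN at chr9:96764448-96780568 on the minus strand and MYRF at chr14:12386429-12423099 on the minus strand. ASPA lies at chr16:3246935-3283552 on the plus strand, ERMN at chr12:44412160-44419557 on the minus strand and UGT8 at chr5:112916172-113001253 on the plus strand. CNP shares 3651 bases, 31.7% of its length, with DNAJC7 on the opposite strand, and ERMN shares 5059 bases, 68.4% of its length, with GALNT5 on the opposite strand. Whether counting used strand is not given in the sources used here, and without strand the reads of such pairs cannot be told apart. In oligodendrocyte-like nuclei DNAJC7 stood at 65.2 to 81.4 CPM and GALNT5 at 1.35 to 14.8. MOBP had 2 gene identifiers, which were summed, and the second gave 35.5 (7 dpi) to 75.0 CPM (6 mpi).

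The myelin genes below the injury did not move as a block. Against intact lumbar cord, MYRF was 1.62-fold higher at 7 dpi and 1.60-fold higher at 6 mpi. ASPA was 1.69-fold higher at 30 dpi and 1.72-fold higher at 6 mpi, and CNP was 1.53-fold higher at 30 dpi. In the class as a whole, MBP, MOG, MOBP, OPALIN, ERMN and UGT8 were within 1.5-fold of intact lumbar cord in every injured library. No gene of the 9 was at least 1.5-fold lower in the class as a whole in any library. Levels are given as CPM, and ratios as log2 of the level over that of intact lumbar cord. In counts against intact lumbar cord a gene was higher or lower when it was past 1.5-fold, since 1 library per group allows no test.

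These counts were read beside the 7928 genes with a mean of at least 10 CPM in the same nuclei. At 7 dpi 1 of 9 myelin genes was higher, where 12.9% of all genes were, and 0 were lower, where 4.96% of all genes were. At 14 dpi 0 were higher and 0 lower, beside 4.62% and 6.34% of all genes. At 30 dpi 2 of 9 were higher, beside 5.79%, and 0 lower, beside 5.94%. At 6 mpi 2 of 9 were higher, beside 12.6%, and 0 lower, beside 5.55%. With 9 genes, 1 or 2 past the threshold is a small count, and nothing particular to the list is read from it.

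The segments of uninjured cord show how far the genes differed within 1 uninjured animal, and they hold no difference between animals. Between intact cervical and intact lumbar cord 0 of the 9 genes were past 1.5-fold in either direction, where 0.441% of all genes were higher and 0.189% lower. Between intact thoracic and intact lumbar cord 0 of 9 were past it as well, beside 0.53% higher and 1.06% lower. The widest log2 difference of a myelin gene between intact segments and lumbar cord was −0.27, for OPALIN in thoracic cord. In order of time after injury, the median log2 ratio of the 9 genes was −0.05, 0.10, 0.17 and −0.01, and that of all genes was 0.11, −0.03, −0.01 and 0.09. Scaling by median-of-ratios size factors moved the median of all genes at 7 dpi by about the same 0.11, to 0.00, and the median of the 9 genes to −0.16.

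**Figure D1:**
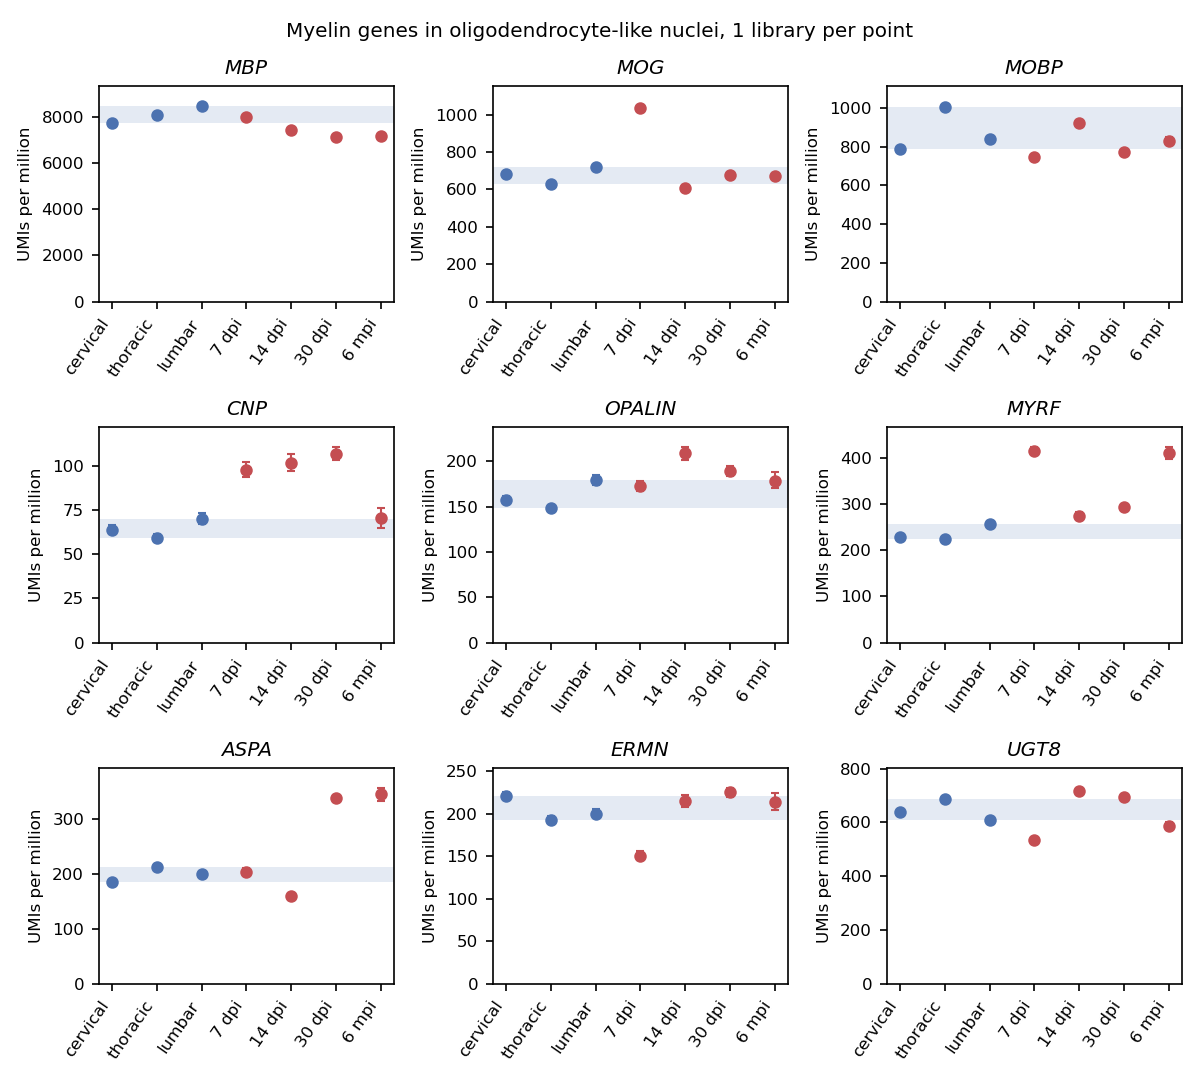
Level of each myelin gene in oligodendrocyte-like nuclei, in CPM, with 1 panel per gene and 1 point per library (blue, intact cord; red, lumbar cord below the injury) and bars for the 95% counting interval. The shaded band spans the 3 intact libraries, and MYRF at 7 dpi (416) and 6 mpi (411) and ASPA at 30 dpi (338) and 6 mpi (346) sit far above it.

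MYRF, the regulator of the set, was higher at the earliest and the latest time and near the intact level between them. Its level was 228 CPM in intact cervical cord, 224 in intact thoracic cord and 256 in intact lumbar cord. Below the injury it was 416 at 7 dpi, 275 (14 dpi) and 293 (30 dpi) at the middle times, and 411 at 6 mpi. The 4 injured libraries all lay above the 3 intact ones, though by little at 14 dpi. The 7 dpi and 6 mpi libraries were also the shallowest, with median UMI counts of 4684 and 3510.5 per oligodendrocyte-like nucleus against 5704 to 8632 in the others. They alone had a median mitochondrial share of UMIs above 0, at 0.00659% and 0.0267%. The part of depth and mitochondrial RNA in the MYRF values was not tested beyond the thinning given here. In the order of the times after injury, the log2 ratios were 0.70 (interval 0.65 to 0.74), 0.10 (0.04 to 0.16), 0.19 (0.15 to 0.24) and 0.68 (0.62 to 0.74). The values at 6 mpi and 7 dpi were not apart by their counting interval, nor were those of intact thoracic and cervical cord. When each nucleus was thinned to 1000 UMIs, which every kept nucleus had, a MYRF UMI was held by 25.2% of nuclei in intact lumbar cord and by 36.7%, 27.3%, 28.7% and 36.2% in the injured libraries, in order of time. Unthinned, the 5 shares were 77.7%, 82.7%, 83.9%, 90.3% and 78.7%, in which the shallow 6 mpi library stood low. In neuron-like nuclei, with median depths of 21490 to 39110.5 UMIs, 0.373% to 1.53% held a MYRF UMI after thinning and 14.2% to 25.6% before it.

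Markers of other cells were measured in the same oligodendrocyte-like nuclei, since they could move with such a result. The 7 dpi library had the highest sums for 6 OPC markers (503 CPM, intact 435 to 459), for 6 astrocyte markers (293, intact 194 to 232) and for 5 Schwann cell markers (579, intact 301 to 354). Single genes made up most of these sums, with 344 from LHFPL3 (OPC), 195 from GFAP (astrocyte) and 535 from CDH19 (Schwann cell). In intact cord the highest markers were LHFPL3 (272 to 278), SLC1A3 (141 to 162) and CDH19 (281 to 329). A higher sum thus does not mean that every marker of a class was higher. At 6 mpi MYRF was also high. The OPC sum of 354 lay below its intact range, the astrocyte sum of 195 within it and the Schwann cell sum of 407 above it. Of that astrocyte sum, 104 came from GFAP. Of the OPC markers, CSPG4 was at 0 in cervical cord and in all 4 injured libraries. Neuron markers summed to 37.8 to 58.6, microglia markers to 11.7 to 48.7 and fibroblast markers to at most 1.09 in every library. The part of these other transcripts in the MYRF values was not tested.

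MBP, which has the core role in compacting myelin, had the narrowest range of the set over all 7 libraries, though not the smallest shift from intact lumbar cord. It stood at 7735, 8077 and 8461 CPM in intact cervical, thoracic and lumbar cord, then at 7996, 7453, 7148 and 7193 at 7, 14 and 30 dpi and 6 mpi. The libraries from 14 dpi onward lay below all 3 intact libraries, and 7 dpi lay among them. Against intact lumbar cord, the highest intact library, the log2 ratios were −0.08 (−0.09 to −0.07), −0.18 (−0.19 to −0.17), −0.24 (−0.25 to −0.23) and −0.23 (−0.25 to −0.22) in order of time. Between 30 dpi and 6 mpi the counting intervals did not separate the levels. After thinning, 99.3% to 99.9% of oligodendrocyte-like nuclei still held an MBP UMI in every library, and 99.8% to 100% did before it.

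MOG, the protein of the outermost lamella, was high in a single library. Its level was 684, 631 and 720.2 CPM in intact cervical, thoracic and lumbar cord. At 7 dpi it reached 1035, a 1.44-fold difference from intact lumbar cord, while the later libraries had 609 (14 dpi), 677 (30 dpi) and 672 (6 mpi). The 7 dpi library stood above every other library and 14 dpi stood just below the intact range. The log2 ratios were 0.52 (0.50 to 0.55), −0.24 (−0.28 to −0.21), −0.09 (−0.12 to −0.06) and −0.10 (−0.14 to −0.06). The thinned share of nuclei with a MOG UMI showed the same order, 53.2% in intact lumbar cord and then 66.0%, 44.3%, 51.7% and 47.9% in order of time, against 95.6%, 96.9%, 95.4%, 98.1% and 88.4% unthinned.

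MOBP, a small basic protein of compact myelin, varied as much between intact segments as after injury. It stood at 788, 1002 and 841 CPM in intact cervical, thoracic and lumbar cord and at 746, 920.3, 774 and 830.2 at 7, 14 and 30 dpi and 6 mpi. The 7 and 30 dpi libraries lay just below the intact range and the other injured libraries inside it. Its log2 ratios were −0.17 (−0.20 to −0.14), 0.13 (0.10 to 0.16), −0.12 (−0.15 to −0.09) and −0.02 (−0.06 to 0.02).

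CNP, an enzyme and structural protein of the cytoplasmic channels of myelin, lay above the intact range at 7, 14 and 30 dpi and was past 1.5-fold at 30 dpi alone. Intact cervical, thoracic and lumbar cord had 64.2, 59.5 and 70.3 CPM. The injured libraries had 98.0 (7 dpi), 102 (14 dpi), 107 (30 dpi) and 70.6 (6 mpi). The log2 ratios were 0.48 (0.39 to 0.57), 0.54 (0.44 to 0.64), 0.61 (0.52 to 0.70) and 0.01 (−0.13 to 0.14). In the class as a whole the 6 mpi library thus matched intact lumbar cord within counting error. The intervals did not separate 7 dpi from 14 dpi or 14 dpi from 30 dpi. At 30 dpi the ratio lay close to the 1.5-fold threshold and ranged from 0.41 to 0.73 over the alternatives. DNAJC7, which overlaps CNP, stood at 73.5, 65.7 and 81.4 CPM at 7, 14 and 30 dpi. In intact cervical, thoracic and lumbar cord it stood at 78.7, 70.3 and 65.2.

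OPALIN showed little difference between libraries as a class mean, in contrast to its wide range between clusters described later. It stood at 157, 148 and 179 CPM in intact cervical, thoracic and lumbar cord and at 173, 209, 189 and 179 at 7, 14 and 30 dpi and 6 mpi. The 14 dpi library was the highest, with a log2 ratio of 0.22 (0.15 to 0.28), and 30 dpi followed with 0.08 (0.02 to 0.14). At 7 dpi the ratio was −0.05 (−0.11 to 0.01) and at 6 mpi −0.01 (−0.09 to 0.08), both with intervals that included 0.

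ERMN, the actin-associated protein, was the gene with the lowest ratio of the set. It had 221, 193 and 200.1 CPM in intact cervical, thoracic and lumbar cord, 151 at 7 dpi, and 215, 225 and 214 in the 3 later libraries. The 7 dpi library lay below all others, while cervical cord and the 3 later libraries were each not separated from the next in order by their intervals. The log2 ratio was −0.41 (−0.47 to −0.35) at 7 dpi, then 0.10 (0.04 to 0.17), 0.17 (0.12 to 0.22) and 0.10 (0.02 to 0.18). GALNT5, which overlaps ERMN, stood at 3.14, 1.35 and 2.01 CPM in intact cervical, thoracic and lumbar cord. In the injured libraries it stood at 4.68, 14.8, 7.33 and 12.4 in order of time. The part of its reads in the ERMN values was not tested. Nuclei with an ERMN UMI after thinning made up 17.3% in intact lumbar cord and 12.5% at 7 dpi, against 63.9% and 47.5% before thinning.

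ASPA and UGT8, the enzymes of myelin metabolism, did not follow each other. ASPA had 186, 214 and 201 CPM in intact cervical, thoracic and lumbar cord. Below the injury it had 204 (7 dpi), 159 (14 dpi), 338 (30 dpi) and 346 (6 mpi). The 14 dpi library was the lowest of all and the 2 latest libraries were the highest, above all 3 intact libraries and not separated from each other. The log2 ratios were 0.03 (−0.03 to 0.08), −0.33 (−0.40 to −0.26), 0.75 (0.70 to 0.80) and 0.78 (0.72 to 0.85), and the sign at 7 dpi turned with the scaling. After thinning, an ASPA UMI was found in 19.0% of nuclei in intact lumbar cord and in 19.5%, 15.8%, 28.7% and 26.1% of those of the injured libraries, in order of time. Unthinned, the 5 shares were 63.2%, 59.2%, 64.4%, 87.3% and 64.3%, and neuron-like nuclei held 0.166% to 0.824% thinned and 4.76% to 13.9% unthinned. The ASPA ratio at 6 mpi was 0.48 when nuclei were thinned, which is below the 1.5-fold threshold. It stayed past the threshold when the level of each nucleus was averaged, which likewise weighs nuclei equally. Thinning was 1 random draw with fewer counts, so its value carries more counting error. The ASPA ratio at 30 dpi kept between 0.65 and 0.79 under every alternative.

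UGT8 stayed close to the intact range. Its level was 637, 685 and 610.1 CPM in intact cervical, thoracic and lumbar cord, and 534, 716, 695 and 586 at 7, 14 and 30 dpi and 6 mpi. The 7 dpi library was the lowest and 14 dpi the highest, and their log2 ratios were −0.19 (−0.23 to −0.16) and 0.23 (0.20 to 0.27). At 30 dpi the ratio was 0.19 (0.16 to 0.22), not separated from intact thoracic cord, and at 6 mpi it was −0.06 (−0.10 to −0.01).

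**Figure D2:**
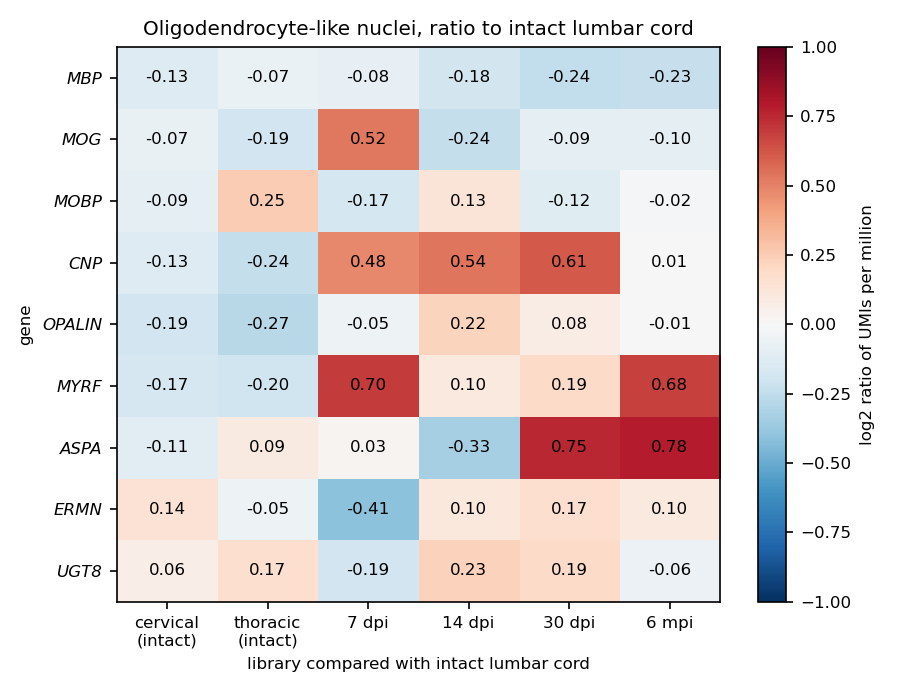
Log2 ratio of each myelin gene in oligodendrocyte-like nuclei to its level in intact lumbar cord, 1 row per gene and 1 column per library, with the value printed in each field (red, higher; blue, lower). Of the 9 genes the ratios reach 0.78 for ASPA at 6 mpi and −0.41 for ERMN at 7 dpi, and the columns of the intact segments stay between −0.27 and 0.25.

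Many genes lay outside the range of the 3 intact libraries, and the counts of myelin genes are given beside the shares of all genes, with no test. At 7 dpi 3 of the 9 genes were above that range and 3 below it, while 50.5% of all genes were above and 33.6% below. At 14 dpi the counts were 4 above and 3 below, beside 31.8% and 46.5% of all genes. At 30 dpi they were 6 above and 2 below, beside 35.8% and 43.8%, and at 6 mpi 3 above and 2 below, beside 48.1% and 34.4%.

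Within the class, OPALIN, MOBP, MYRF and MBP spanned a wider range over the clusters than over the libraries, and UGT8 and ERMN a narrower one. For MOG, CNP and ASPA the range over the clusters was the wider only when cluster 37, with 73 nuclei, was counted. The oligodendrocyte-like nuclei fell into 7 of 39 clusters. Clusters 0, 8 and 10 held 6327, 3173 and 2529 nuclei, of which 7.70%, 3.31% and 4.15% came from injured cord. Clusters 2 and 3 held 5115 and 4676 nuclei, of which 98.5% and 97.9% came from injured cord, so intact and injured libraries were compared above across different clusters. Libraries were not integrated, and a cluster held mostly by some libraries may be those libraries and not a type.

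OPALIN split these clusters. It stood at 377 CPM in cluster 0, 431 in cluster 2 and 535 in the small cluster 29, but at 49.4 in cluster 3, 5.57 in cluster 8, 80.8 in cluster 10 and 27.3 in cluster 37. The clusters above 200 CPM are called OPALIN-rich here, a limit set after the values were seen. They took 51.9%, 44.9% and 60.4% of oligodendrocyte-like nuclei in intact cervical, thoracic and lumbar cord, and 46.8%, 49.3%, 55.5% and 68.8% at 7, 14 and 30 dpi and 6 mpi. Clusters of both kinds were thus present in every library. The median UMI count was 5037.5 in OPALIN-rich clusters and 9260 in the others, so depth moved with the split, and its part in it was not tested.

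The other genes were compared across that split within each library, where they were not used to make it. MOBP was lower in OPALIN-rich clusters in all 7 libraries, at 0.47 to 0.66 of its level in the other clusters. In intact lumbar cord this was 636 against 998 CPM, and at 7 dpi it was 420 against 886. MBP was also lower in all 7, at 0.81 to 0.91, and UGT8 in all 7, at 0.85 to 0.97. MOG was higher in all 7 libraries, at 1.17 to 1.37, and MYRF in all 7, at 1.20 to 1.56. MYRF thus stood at 317 against 210 in intact lumbar cord and at 487 against 338 at 6 mpi. CNP was higher in 6 of 7 libraries, with ratios of 1.00 to 1.35, and ASPA in 6 of 7, with 0.97 to 1.41. ERMN was higher in 2 and lower in 5, with 0.79 to 1.06. The share of all genes with 1 direction in all 7 libraries was not computed. Nothing particular to the myelin genes is thus read from these directions.

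**Figure D3:**
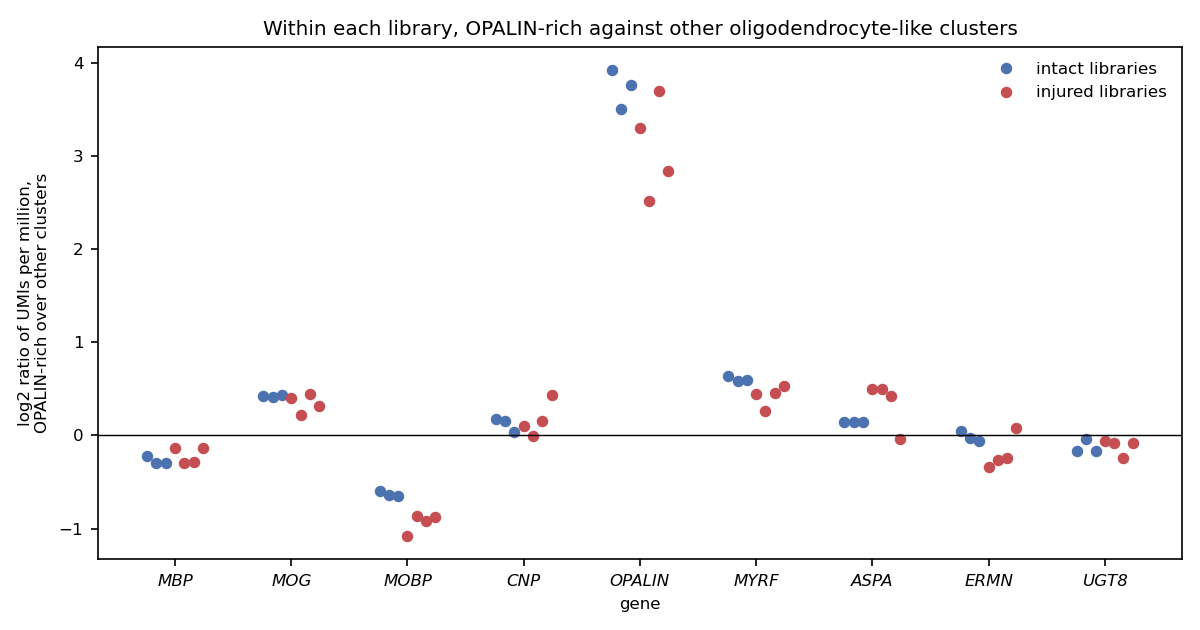
Log2 ratio of each myelin gene between OPALIN-rich and other oligodendrocyte-like clusters of the same library, 1 point per library (blue, intact; red, injured). OPALIN itself defined the split, MOBP lies below 0 in all 7 libraries, and MOG and MYRF lie above 0 in all 7.

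The higher levels of MYRF, ASPA, CNP and MOG were seen on each side of the split. The log2 ratio of MYRF was 0.69 in OPALIN-rich and 0.84 in other clusters at 7 dpi, and 0.62 and 0.69 at 6 mpi. For ASPA it was 0.91 and 0.64 at 30 dpi, and 0.68 and 0.87 at 6 mpi. For CNP the pairs were 0.53 and 0.46 at 7 dpi, 0.52 and 0.55 at 14 dpi, and 0.68 and 0.56 at 30 dpi. At 6 mpi, where CNP in the class as a whole was near intact lumbar cord, the pair was 0.19 and −0.20. For MOG at 7 dpi they were 0.56 and 0.59. The MOG value in the other clusters was past 1.5-fold, unlike that of the class as a whole. At 7 dpi the log2 ratios of MOBP and ERMN were −0.60 and −0.62 in OPALIN-rich clusters, past 1.5-fold, and −0.17 and −0.34 in the other clusters. Whether the sides differed in these ratios was not tested, and the shares of all genes given above are for the class as a whole and not for either side. At 6 mpi the clusters held mostly by intact nuclei also had higher MYRF and ASPA. MYRF stood at 461, 319 and 360 CPM in clusters 0, 8 and 10 at 6 mpi, from 335, 71 and 76 nuclei, against 314, 204 and 222 in intact lumbar cord. ASPA stood at 368, 419 and 465 there, against 213, 163 and 253. OPALIN, which defined the split, stood in OPALIN-rich clusters at 466, 446, 431 and 320 in order of time against 377 in intact lumbar cord. In the other clusters it stood at 33.2 to 77.7 in the injured libraries and, in intact cord, at 24.9 (cervical), 35.6 (thoracic) and 27.7 (lumbar).

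The bases before OPALIN and MOBP are shown. OPALIN defined the split, so its own difference across it was fixed in advance. Among the other genes MOBP had the lowest ratio across it, 0.47 at 7 dpi. Each line gives the 250 bases that precede the RefSeq gene bound in Mmul_10, 5′ to 3′ on the gene's strand, chr9:96780569-96780818 on the minus strand for OPALIN and chr2:95482813-95483062 on the plus strand for MOBP. Capitals mark the SOX-family core words ACAAAG and ACAAT, and their reverse complements CTTTGT and ATTGT, searched on both strands.
OPALIN: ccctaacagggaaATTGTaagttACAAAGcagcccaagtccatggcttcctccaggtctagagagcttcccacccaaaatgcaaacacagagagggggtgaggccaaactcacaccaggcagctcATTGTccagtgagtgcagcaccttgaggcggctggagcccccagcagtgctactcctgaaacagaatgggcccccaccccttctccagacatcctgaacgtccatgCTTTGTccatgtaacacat
MOBP: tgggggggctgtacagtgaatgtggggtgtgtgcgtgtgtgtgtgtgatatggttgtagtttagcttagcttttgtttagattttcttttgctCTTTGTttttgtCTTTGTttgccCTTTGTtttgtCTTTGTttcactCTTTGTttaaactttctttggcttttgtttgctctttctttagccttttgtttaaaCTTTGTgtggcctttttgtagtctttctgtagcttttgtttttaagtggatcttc
ACAAAG was found 6 times before MOBP and 2 times before OPALIN, and before no other of the 9 genes, while 12.6% of 20782 windows of 250 bases before protein-coding genes held it. ACAAT was found 2 times before OPALIN and 4 times before ERMN, against 22.4% of windows. For MYRF only the exact letters CTGGCAC were searched, found in 0 of the 9 windows and in 4.19% of all. Other forms of the MYRF word were not searched, so whether the windows hold one is not given. A match describes letters and is neither a binding site nor a cause, and no match says only that the letters are not in this window.

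Other classes showed how far these transcripts spread beyond oligodendrocytes. As a share of the level in oligodendrocyte-like nuclei of the same library, neuron-like nuclei held 1.06% to 2.78% for MBP, 0.676% to 2.39% for MOG and 0.626% to 2.57% for MOBP. CNP was the exception, with 4.61% to 15.3% in neuron-like nuclei and 16.7% to 36.2% in astrocyte-like nuclei, and it had the highest share of the 9 genes in neuron-like, microglia-like and astrocyte-like nuclei of all 7 libraries. DNAJC7, its antisense neighbour, stood at 61.5 to 87.4 CPM in neuron-like and 82.8 to 102 in astrocyte-like nuclei. The part of free RNA in these shares was not tested. OPALIN ranged from 0.803% to 2.59% in neuron-like nuclei and MYRF from 1.93% to 3.97%.

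MBP in microglia-like nuclei had a larger share than the other genes there apart from CNP. It was at 963, 957 and 750 CPM in intact cervical, thoracic and lumbar cord and at 963, 776, 793 and 1047 at 7, 14 and 30 dpi and 6 mpi. That was 8.86% to 14.6% of its oligodendrocyte-like level, against 1.11% to 4.65% for MOG, 0.764% to 6.68% for OPALIN and 1.01% to 3.29% for UGT8. After thinning, 51.4% to 59.8% of microglia-like nuclei held an MBP UMI, against 7.05% to 18.2% of neuron-like nuclei, and unthinned the shares were 83.7% to 94.6% and 74.2% to 89.4%. Median depths were 2380 to 5313 UMIs in microglia-like nuclei. As background, the MBP locus also makes Golli transcripts from an upstream start, which are known in immune cells, and the gene-level counts do not separate them.

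UGT8 in OPC-like nuclei was at 17.5% to 29.4% of its oligodendrocyte-like level in the 7 libraries, against 10.9% to 31.1% for CNP, 3.90% to 20.1% for MYRF and 0.675% to 10.2% for MOG. An OPC-like nucleus held a UGT8 UMI in 8.09% to 14.3% of cases after thinning and 30.4% to 59.6% before. ASPA in astrocyte-like nuclei was at 8.65% to 28.2%, ERMN at 4.004% to 23.3% and MOG at 1.03% to 19.1%. ERMN was above ASPA there at 7 dpi (10.1% against 8.65%) and at 6 mpi (20.7% against 19.4%). In intact thoracic cord all 9 genes were at 12.7% or more in astrocyte-like nuclei, while the lowest in intact lumbar cord was 1.22%.

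**Figure D4:**
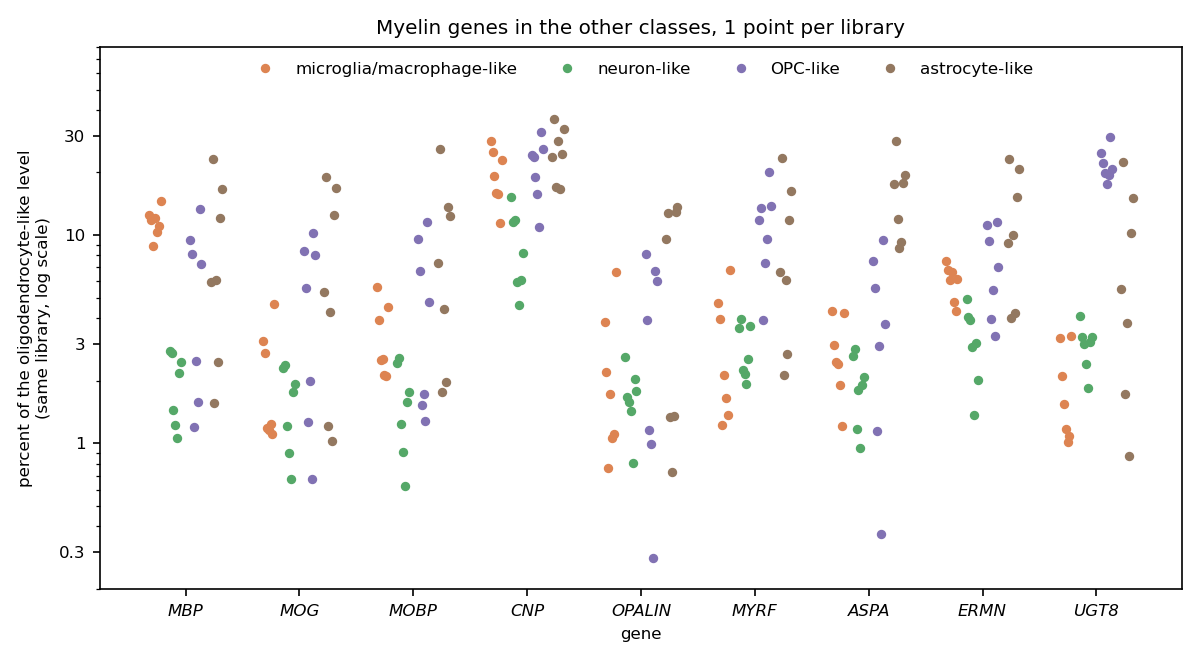
Level of each myelin gene in 4 other classes as a percent of its oligodendrocyte-like level in the same library, on a log axis, 1 point per library and colour for the class. MBP in microglia-like nuclei (8.86% to 14.6%) and UGT8 in OPC-like nuclei (17.5% to 29.4%) lie above most other genes of the same class.

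Other genes of myelin and of the oligodendrocyte were read from 5 lists, with the same 1.5-fold limit. In order of time, the shares of all genes past it were 12.9%, 4.62%, 5.79% and 12.6% in the higher direction and 4.96%, 6.34%, 5.94% and 5.55% in the lower. Of compact myelin and membrane proteins, 2 of 12 were higher and 0 lower at 7 dpi, 1 and 0 at 14 dpi, 2 and 0 at 30 dpi, and 0 and 1 at 6 mpi, with median log2 ratios of 0.21, 0.05, 0.17 and 0.15. NINJ2, an adhesion protein, had a log2 ratio of 0.45 at 6 mpi, MAL, a membrane protein of compact myelin, −0.81, and GPR37, a receptor of oligodendrocytes, 0.03. In the list of lipid synthesis and metabolism, 4, 4, 5 and 8 of 15 genes were lower at 7, 14 and 30 dpi and 6 mpi and 0 were higher, with medians of −0.24, −0.26, −0.29 and −0.67. HMGCS1, an early enzyme of cholesterol synthesis, was at 57.0, 63.9, 46.5 and 29.5 CPM against 172 in intact lumbar cord, a log2 ratio of −2.54 at 6 mpi. At that time CERS2, which makes very long chain ceramides, was at 0.44 and the desaturase FADS2 at 0.10. UGT8 and ASPA, the lipid-related genes of the 9, were not among the lower genes at 6 mpi, with −0.06 and 0.78.

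Transcription factors of the lineage had 4 of 10 higher at 7 dpi, when MYRF was also higher, and 1 of 10 at each later time, with 0 lower and medians of 0.37, 0.03, 0.11 and −0.01. Between intact segments of the 1 uninjured animal, 1 of 10 was lower in cervical and 2 of 10 in thoracic cord than in lumbar cord. The 2 were OLIG2 (−0.89) and NKX6-2 (−0.73), and in cervical cord it was NKX6-2 (−0.59). Of each of the other 4 lists, at most 1 gene in either direction was past the limit between intact segments. The 4 genes higher at 7 dpi were SOX8, SOX10, OLIG2 and NKX6-2, at log2 ratios of 0.94, 0.76, 1.04 and 1.46, beside 12.9% of all genes higher in that library. At 6 mpi SOX8 was at 1.26, NKX6-2 at −0.28 and ZEB2 at 0.01. Of cytoskeletal and other mature oligodendrocyte genes, 4 of 15 were higher and 2 lower at 7 dpi, beside 12.9% and 4.96% of all genes, then 0 and 1 at 14 dpi, 2 and 2 at 30 dpi, and 3 and 1 at 6 mpi. Their medians were 0.45, 0.02, 0.07 and −0.08, with SEPTIN4 at 1.30, TF at −0.75 and CDK18 at 0.04 at 6 mpi. Of 8 genes of axon-glia contact, 3, 1, 1 and 2 were higher, beside 12.9%, 4.62%, 5.79% and 12.6% of all genes, and 1, 0, 1 and 0 lower, beside 4.96%, 6.34%, 5.94% and 5.55%. Their medians were 0.38, 0.16, 0.35 and 0.36. ERBB3, a neuregulin receptor, was at 0.91, NFASC at −0.09 and NRG3 at 0.01 at 6 mpi.

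For each myelin gene, the 2 genes with the most similar course over the 7 libraries were found among named genes outside the 9 and the 5 lists. They had to have a mean of at least 50 CPM in oligodendrocyte-like nuclei and a range of at least 0.5 times that of the myelin gene (for ASPA, at least 1 on the log2 scale). The likeness is Pearson's r of log2 levels, a description over 7 libraries that share their depths. Each pair is the best of 367 (ASPA) to 3361 (MBP) candidates, so a high r is not read as a link. MYRF was most like CBX7 (0.98) and TIAM1 (0.98), CNP most like PDE4D (0.99) and PRKCB (0.99), and MOG most like ZNF565 (0.98) and RPS6KA2 (0.97). ASPA was most like CD55 (0.93) and TUSC3 (0.91), ERMN most like PHF3 (0.96) and ADAM22 (0.95), and UGT8 most like LPCAT2 (0.98) and UBE3A (0.97). MBP was most like FAXDC2 (0.94) and ZCCHC24 (0.93), OPALIN most like LRP6 (0.94) and AUTS2 (0.93), and MOBP most like NUFIP2 (0.92) and GOLGA4 (0.89). TIAM1 had 28.0, 25.4 and 32.2 CPM in intact cervical, thoracic and lumbar cord and 96.0, 51.4, 52.0 and 114 at 7, 14 and 30 dpi and 6 mpi. CD55 had 51.4, 59.2 and 50.9, then 83.6, 55.6, 152 and 146.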

How the data were processed

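The authors isolated nuclei, prepared 10x Chromium libraries and aligned reads to Mmul_10. The deposited matrices hold whole UMI counts per gene and barcode, from Cell Ranger 6.0.0 per the submitters' processing notes. Annotation release, strand and intron settings are not given in the sources used here, and labels and methods name different sequencers. Following the study's methods, a barcode had to hold more than 500 genes and more than 1000 UMIs, with mitochondrial UMIs below 10% and those of hemoglobin below 5%. The highest 5% of Scrublet scores per library were removed as doublets. The authors' DoubletFinder and Seurat integration were not rerun. Identifiers that share a symbol were summed, and 959 were named from the RefSeq table.

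Counts scaled to 10000 were log-transformed, and 2000 variable genes without the 9 myelin genes gave 30 components, 20 neighbours and Leiden clusters (resolution 1, seed 1). Clusters were named "-like" from markers of 11 classes. A name needed 3 of its markers present in 10% of the nuclei, and clusters led by another class's markers, of low UMIs or mixed stayed unnamed (3658 nuclei). The limits for mixtures were adjusted after clusters were seen. The naming gave 7 oligodendrocyte-like clusters.

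UMIs were summed per class and library. Levels carry exact Poisson intervals, ratios exact conditional binomial intervals, and shares of nuclei exact Clopper-Pearson intervals. Groups of 1 library allowed no test between them. Named genes were the 9 and, per list, those with the largest rise, largest fall and smallest difference at 6 mpi. Genes past 1.5-fold in the transcription factor list, and DNAJC7 and GALNT5, were added after values were seen. The members and lists were chosen with earlier results of these data known. The scripts were checked on simulated counts, and 12 alternatives were tried. The tools were scanpy 1.11.5, leidenalg 0.10.2, scipy 1.17.1, pandas 2.3.3, numpy 2.4.6 and matplotlib 3.10.9 under Python 3.11.15.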

Additional observations from a re-analysis of the deposited data

Results flagged for a closer look

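For 4 of the 9 genes an injured library lay above the range of the 3 intact libraries and another below it, and both ratios to intact lumbar cord had a counting interval that did not include 0. With 1 library per group these differences between times were not tested, and time, animal, age and library cannot be told apart. The share of all genes that meet the same rule was not computed. At 7 dpi alone, 50.5% of all genes lay above the intact range and 33.6% below it. MOG had a log2 ratio of 0.52 at 7 dpi and −0.24 at 14 dpi, a difference of 0.77 (interval 0.73 to 0.80). ASPA had 0.78 at 6 mpi and −0.33 at 14 dpi, a difference of 1.12 (1.04 to 1.19). ERMN had 0.17 at 30 dpi and −0.41 at 7 dpi, a difference of 0.58 (0.52 to 0.64). Its 30 dpi level (225 CPM) was not separated by counting interval from intact cervical cord (221), the top of the intact range. UGT8 had 0.23 at 14 dpi and −0.19 at 7 dpi, a difference of 0.42 (0.39 to 0.46). ERMN and UGT8 were thus lowest at 7 dpi, the library in which MOG was highest.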

How the results depend on the processing

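No ratio of a myelin gene to intact lumbar cord changed from past 1.5-fold in one direction to the other, and the count of genes at least 1.5-fold lower was 0 at every time under each alternative. With the mean of the 3 intact libraries as reference, 3 genes were higher at 7 dpi (MOG, CNP and MYRF) instead of 1, and 1 at 14 dpi (CNP) instead of 0. At a threshold of 2-fold, 0 genes were higher at 7 dpi, 30 dpi and 6 mpi. Averaging the level of each nucleus left 1 higher gene at 30 dpi (ASPA), and thinning to 1000 UMIs left 1 at 30 dpi (ASPA) and 1 at 6 mpi (MYRF). The median log2 ratio at 7 dpi was 0.030 with the intact mean, −0.16 with median-of-ratios size factors and 0.097 with nucleus averages. At 6 mpi it was −0.091 with size factors and 0.086 after thinning. Of the values of counts and medians under the alternatives, 127 stayed within the limits and 13 moved. The limits were a 1.5-fold difference between counts and, for medians, the medians of the ends of the 9 counting intervals. A count of 0 cannot rise at a stricter threshold, so at 2-fold such values stayed by construction. Single ratios of the 9 genes at the 4 times moved beyond their counting interval more often: 27 of 36 with the intact mean, 20 of 36 after thinning, and 18 of 36 each with size factors and nucleus averages. Of 252 levels in other classes as a percent of the oligodendrocyte-like level, 159 moved beyond theirs after thinning. Thinned values came from 1 random draw with fewer counts but were held against intervals of the full counts. How far the moves after thinning are counting error was not tested. Over the alternatives the log2 ratio of MYRF ranged from 0.59 to 0.82 at 7 dpi and from 0.59 to 0.80 at 6 mpi. Counting the low-UMI cluster 16 as oligodendrocyte-like, chosen after seeing the data, changed no count. No paired analysis was possible because each group is 1 library. The 6 mpi class had 8868269 UMIs and 626 of CNP, which sets the widest interval among the ratios.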

Other observations

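MBP was also found in immune-like nuclei outside the microglia-like class. Cluster 12, left unnamed and led by ITGAX, GPNMB and MSR1, genes known from lipid-laden and activated phagocytes, held 2068 nuclei, of which 1309 came from 30 dpi. In the injured libraries, in order of time, its MBP level was 1127, 1046, 917 and 835 CPM (UMIs scaled to a total of 1000000). Its MOG level was 16.5, 9.43, 10.7 and 8.89, and its OPALIN level 4.51, 0.898, 3.16 and 0. At 30 dpi MBP was thus at 12.8% of the oligodendrocyte-like level, MOG at 1.57% and OPALIN at 1.67%. The 3 intact libraries had 4, 21 and 7 nuclei in this cluster. T cell-like nuclei, 18 to 125 per library, had 1160 to 3011 CPM of MBP, and at 7 dpi they held 181 UMIs of MBP, 1 of MOG and 0 of OPALIN. At 6 mpi the same class had 159 UMIs of MBP and 21 of MOG from 23 nuclei.

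Cluster 16 held 1190 nuclei of low UMI count that carried oligodendrocyte markers but had GFAP and NEFH among their leading genes. MBP stood there at 2129 to 4997 CPM, which was 26.6% to 63.0% of the oligodendrocyte-like level. CNP was at 25.6% to 104% of it.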
